A study of Homo sapiens with 36 samples.

Results

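The genes described here are 10 genes of haptoglobin, haem and iron handling, out of 35460 genes that could be summed from the deposited transcript values: HP, CD163, HMOX1, TFRC, SLC11A1, SLC11A2, SLC40A1, FTH1, FTL and IREB2. They were chosen by summed TPM: HP and SLC11A1 were among the largest differences between A9 and DMSO in MONO-MAC-6 cells, and the others belong to the same pathway. The MONO-MAC-6 contrast was thus used in the choice. Its values for these genes are given as a description with no p-value, while the MOLM-13 contrast was tested.

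MOLM-13 and MONO-MAC-6 are established human acute myeloid leukaemia cell lines, labelled wild type and grown in the same serum-supplemented medium. Each was treated for 72 h with the solvent DMSO or with A9, labelled a PROTAC, which is a molecule that brings a target protein to a ubiquitin ligase for degradation. The sources disagree on the targets of A9: IKK2 with NR4A1 in the design text, and IKK1 with NR4A1 in the series title. A9 was given at 0.125 µM to MOLM-13 and at 0.25 µM to MONO-MAC-6, so dose and line cannot be told apart. Poly(A) RNA was sequenced in 36 libraries, 9 for each of 4 groups. The labels state 3 samples per group, so the 3 libraries that share the first number of their title were averaged into a sample. They do not say whether the 3 were separate cultures, so p-values measure only the spread between these samples. All levels are TPM, which is a length-corrected share of each library's RNA. In bulk RNA of this kind, a change in the share of cells and a change in the RNA per cell cannot be told apart.

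Iron enters most cells bound to transferrin through the transferrin receptor, is carried across the endosomal membrane by DMT1, is stored in ferritin shells built of heavy and light subunits, and leaves through ferroportin. Macrophages also take up haemoglobin bound to haptoglobin and break down its haem. Translation of both ferritin subunits and ferroportin and the stability of transferrin receptor mRNA are set by iron regulatory proteins, which bind a hairpin called the iron-responsive element when iron is scarce. Haptoglobin is known mainly as a liver plasma protein, and is also made in developing granulocytes.

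A strict form of the iron-responsive element is shown because it is a site of this control, which acts on translation and decay. RNA levels read that control only in part. The untranslated regions of GENCODE 29 transcripts were searched on the transcript strand for a C, any 5 bases, the loop CAGTGN, and 5 bases that pair with the first 5, with G-T pairs allowed. Of 19666 protein-coding genes, 159 (0.809%) held a match. Of the 10 members, 4 did: FTH1, FTL and SLC40A1 in the 5′ untranslated region, and TFRC with 4 copies in the 3′ untranslated region. Each site is given as DNA on GRCh38, 5′ to 3′, with 6 flanking bases on each side and the 6-base loop in capitals.
FTH1, chr11:61967574-61967602, minus strand: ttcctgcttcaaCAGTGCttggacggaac
FTL, chr19:48965335-48965363, plus strand: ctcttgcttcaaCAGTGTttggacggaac
SLC40A1, chr2:189580661-189580689, minus strand: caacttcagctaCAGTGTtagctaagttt
TFRC, chr3:196050979-196051007, minus strand: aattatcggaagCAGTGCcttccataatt
TFRC, chr3:196050575-196050603, minus strand: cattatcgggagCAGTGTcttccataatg
TFRC, chr3:196050510-196050538, minus strand: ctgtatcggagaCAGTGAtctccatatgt
TFRC, chr3:196050463-196050491, minus strand: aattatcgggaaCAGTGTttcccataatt
The FTH1 and FTL sites are nearly alike in letters, and the 4 TFRC sites lie close together in the same untranslated region. Transcripts with the site carried 98.1% to 99.4% of FTH1 TPM in every sample and all of FTL TPM. SLC11A2, IREB2, HMOX1, HP, SLC11A1 and CD163 held no match, which says only that these letters are not in those regions. Hairpins of another form were not searched for, so a member without a match may still share this control.

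In MONO-MAC-6, RNA of HP, SLC11A1, HMOX1, both ferritin subunits and SLC11A2 was higher in all 3 A9 samples than in all 3 DMSO samples. The log2 fold change of SLC11A2 was small, at 0.42. HP had the highest fold change on log2(TPM + 1) of the 12869 genes tested. RNA of the receptor, the exporter and the regulatory protein overlapped between the groups. In MOLM-13, HP, HMOX1, FTH1 and FTL were also higher in all 3 A9 samples, by smaller amounts, and none of the 7 members tested passed an adjusted p of 0.05 in limma.

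HP encodes haptoglobin, which binds free haemoglobin (chromosome 16, 72054592 to 72061055, plus strand). In MONO-MAC-6 it stood at 10.9, 8.87 and 8.77 TPM in the DMSO samples and at 178, 241 and 244 TPM in the A9 samples. The groups were far apart, with means of 9.51 ± 1.19 and 221 ± 37.6 TPM (SD, n = 3), a ratio of 23.2. The log2 fold change on log2(TPM + 1) was 4.39 (SE 0.16), rank 1 of 12869 on that scale, which shrinks the folds of low genes. In MOLM-13 HP was near the lower limit of what was tested, at 0.405, 0.823 and 0.917 TPM with DMSO and 2.51, 3.17 and 3.03 TPM with A9. The MOLM-13 ratio was 4.07 and the log2 fold change 1.20 (SE 0.16), with an adjusted p of 0.0738 by limma. HP passed the filter in MOLM-13 only through its A9 samples. All A9 samples were above all DMSO samples, yet the A9 samples of MOLM-13 stayed below the DMSO samples of MONO-MAC-6, a comparison between separate tables that was not tested.

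The transcripts that carried HP were not the same in the lines. In MONO-MAC-6, HP-202, a coding transcript of 7 exons and 1443 bases, held 90.0% ± 6.40 of HP TPM with DMSO and 94.1% ± 5.74 with A9 (SD, n = 3). In MOLM-13 HP-202 was listed at 0 with DMSO and held at most 3.86% with A9. HP-204, with 5 exons and 1252 bases, held 70.4% ± 9.64 of the MOLM-13 total with DMSO and 39.2% ± 19.3 with A9. HP-216, another transcript of 5 exons, held 58.1%, listed 0 and 52.0% in the 3 A9 samples of MOLM-13. The shares in MOLM-13 rest on totals of about 3 TPM or less. Of the 31-base words of HP-202, 45.2% also occur in HPR, the haptoglobin-related neighbour gene, but HPR itself reached at most 0.136 TPM in any sample.

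HMOX1 encodes haem oxygenase 1, which opens the haem ring and frees its iron (chromosome 22, 35380361 to 35394214, plus strand). In MONO-MAC-6 it was listed at 0.264, 0.197 and 0.380 TPM with DMSO and at 5.10, 12.2 and 8.49 TPM with A9. The A9 samples differed more than 2-fold among themselves and were all above the DMSO samples, with a log2 fold change of 2.84 (SE 0.28), rank 6. The ratio of the mean TPM was 30.7, above that of HP, over a DMSO mean of 0.280 TPM, and HMOX1 passed the filter only through its A9 samples. In MOLM-13 the DMSO samples were at 1.45, 1.60 and 1.57 TPM and the A9 samples at 5.41, 5.77 and 3.64 TPM. That is a ratio of 3.21 and a log2 fold change of 1.21 (SE 0.17), with an adjusted p of 0.0844 by limma. Without A9 sample 3, the lowest of the treated samples, the adjusted p by limma was 0.0418, and without each other sample in turn it was 0.221 to 0.490. CD163, the macrophage receptor for haptoglobin bound to haemoglobin, never passed 1.14 TPM in any sample and was too low to test in either line. Its samples overlapped between DMSO and A9, and transcripts annotated as non-coding processed transcripts held 77.4% to 90.3% of that low total as group means.

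**Figure D1:**
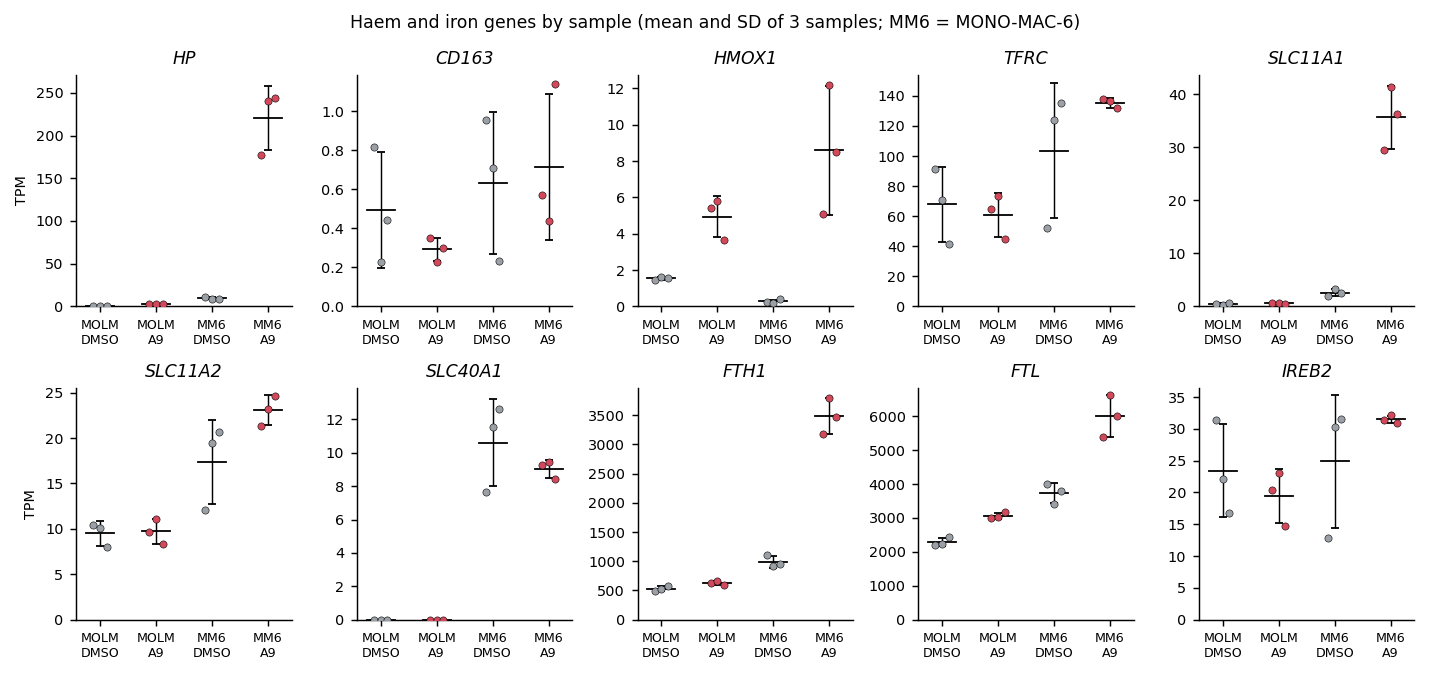
TPM (y axis, linear, own scale per gene) of the 10 genes in the 12 samples, with points for samples, bars for the mean and whiskers for the SD of 3 samples. HP, HMOX1, SLC11A1, SLC11A2, FTH1 and FTL are higher in all A9 samples of MONO-MAC-6 than in its DMSO samples, while TFRC, SLC40A1, IREB2 and CD163 overlap.

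SLC11A1 encodes NRAMP1, a metal transporter of the phagosome membrane in macrophages and granulocytes (chromosome 2, 218382029 to 218396894, plus strand). In MONO-MAC-6 it stood at 1.98, 3.20 and 2.57 TPM with DMSO and at 29.4, 41.3 and 36.3 TPM with A9. The groups did not overlap: the means were 2.58 ± 0.608 and 35.7 ± 5.96 TPM (SD, n = 3), a ratio of 13.8. The log2 fold change was 3.36 (SE 0.19), rank 4. In MOLM-13 it was at 0.330 to 0.644 TPM with DMSO and at 0.470 to 0.711 TPM with A9, too low to test, and the groups overlapped.

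Most of the SLC11A1 signal lay on transcripts that are not annotated as coding. In MONO-MAC-6 the only coding transcript, of 15 exons and 3852 bases, held 27.6%, 21.3% and 28.1% of SLC11A1 TPM with DMSO and 15.7%, 17.2% and 14.8% with A9. Its share was lower in every A9 sample, while its level was 0.650 ± 0.0927 TPM with DMSO and 5.70 ± 1.27 TPM with A9 (SD, n = 3). A transcript of 16 exons and 2136 bases, annotated as a substrate of nonsense-mediated decay, held 9.06% ± 0.865 with DMSO and 22.2% ± 1.02 with A9. Transcripts with a retained intron held 58.5% ± 8.16 and 56.3% ± 0.461, and overlapped. None of the 31-base words of this SLC11A1 transcript of 2136 bases occurs in another gene's transcripts. In MOLM-13 the coding transcript held 59.0% ± 9.22 with DMSO and 46.0% ± 14.9 with A9 of totals under 1 TPM.

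SLC11A2 encodes DMT1, the related importer that moves iron out of endosomes (chromosome 12, 50979401 to 51028566, minus strand). In MONO-MAC-6 it was at 12.1, 19.4 and 20.7 TPM with DMSO and 21.3, 23.2 and 24.6 TPM with A9. The A9 samples were all higher, by 0.42 (SE 0.21) on the log2 scale, and by 0.19 without DMSO sample 1, the lowest one. In MOLM-13 the groups overlapped at 7.96 to 10.47 and 8.37 to 11.1 TPM (log2 fold change 0.03, limma adjusted p 0.969).

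TFRC encodes the transferrin receptor (chromosome 3, 196027183 to 196082189, minus strand). In MONO-MAC-6 it stood at 52.0, 124 and 135 TPM with DMSO and at 138, 136 and 132 TPM with A9. DMSO sample 1 was far below the other 5, which lay close together. The log2 fold change was 0.50 (SE 0.35) with it and 0.07 without it. In MOLM-13 the samples were at 91.3, 70.5 and 41.5 TPM with DMSO and 64.5, 73.2 and 44.6 TPM with A9 (log2 fold change -0.12, limma adjusted p 0.935). That value turned to 0.13 without DMSO sample 1 and to 0.09 without A9 sample 3.

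A sample of each line differed from the rest in its TFRC transcripts. TFRC-201, the coding transcript of 5111 bases that holds the 4 hairpins printed above, carried 37.4% of TFRC TPM in DMSO sample 1 of MONO-MAC-6 and 39.4% in A9 sample 3 of MOLM-13, against 85.3% to 90.8% in the other 10 samples. TFRC-214, a retained-intron transcript of 757 bases, carried 58.0% and 57.0% in the same samples and at most 5.24% elsewhere. These samples also had the shortest mean transcript length weighted by TPM, 1241 bases in DMSO sample 1 against 1419 to 1444 bases in the other 5 of MONO-MAC-6, and 1227 bases in A9 sample 3 against 1289 to 1414 bases in the other 5 of MOLM-13. IREB2 had its lowest value of each line in them, and TFRC had its lowest of MONO-MAC-6. In MOLM-13 the lowest TFRC value was that of DMSO sample 3, where TFRC-201 held 88.0% and TFRC-214 5.24%. The part of transcript length in these results was not tested beyond an alternative with the length trend removed.

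**Figure D2:**
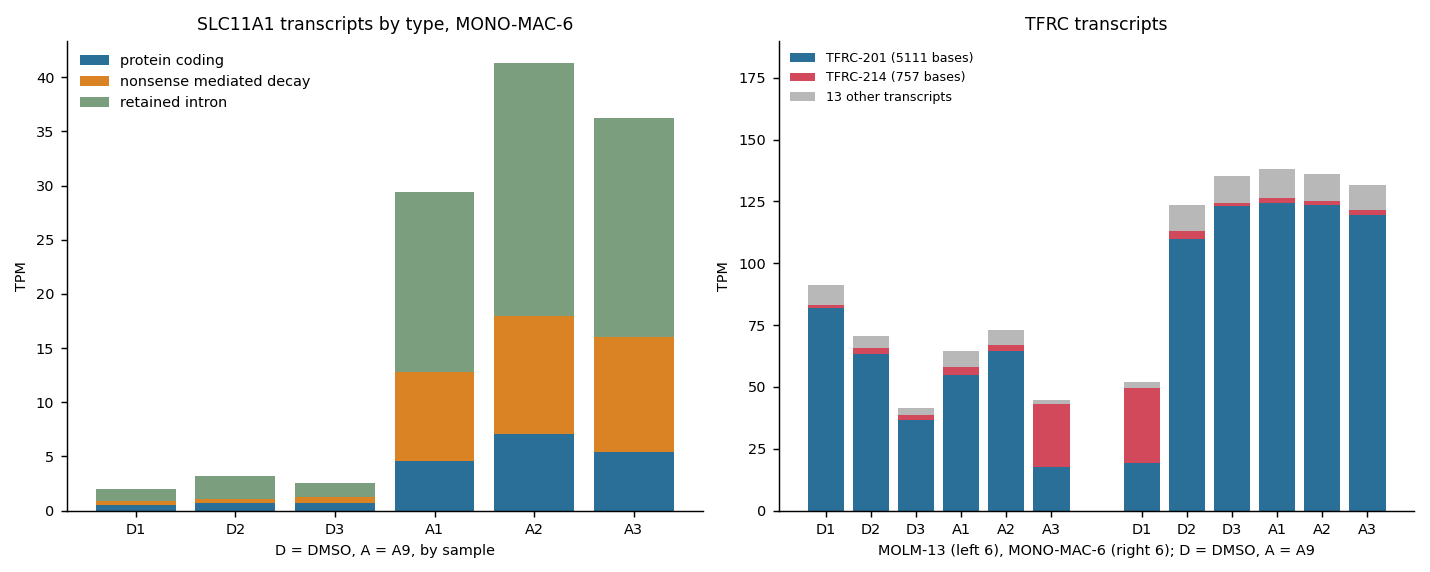
Stacked TPM (y axis, linear from 0) by sample, of SLC11A1 transcripts by annotated type in MONO-MAC-6 (left) and of TFRC transcripts in both lines (right). Every transcript type of SLC11A1 is higher with A9, and TFRC-214 makes up 58.0% of TFRC in DMSO sample 1 of MONO-MAC-6 and 57.0% in A9 sample 3 of MOLM-13.

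SLC40A1 encodes ferroportin, the iron exporter (chromosome 2, 189560579 to 189583758, minus strand). It was listed at 0 in all 6 MOLM-13 samples. In MONO-MAC-6 it was at 7.64, 11.5 and 12.6 TPM with DMSO and 9.27, 9.43 and 8.42 TPM with A9. The DMSO samples lay on both sides of the A9 samples, and the log2 fold change was -0.18, between -0.38 and -0.05 when each sample was left out in turn.

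FTH1 encodes the ferritin heavy subunit, which oxidises iron for storage (chromosome 11, 61959718 to 61967660, minus strand). In MONO-MAC-6 it was at 1100, 912 and 950 TPM with DMSO and 3181, 3803 and 3464 TPM with A9. Every A9 sample was at least 2-fold above every DMSO sample: the ratio of means was 3.53 and the log2 fold change 1.82 (SE 0.11), rank 32. In MOLM-13 it was at 488, 525 and 574 TPM with DMSO and 624, 659 and 595 TPM with A9. The groups did not overlap, but the log2 fold change of 0.24 (SE 0.08) had an adjusted p of 0.443 by limma.

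FTL encodes the light subunit, which supports mineral growth inside the shell (chromosome 19, 48965301 to 48966878, plus strand). In MONO-MAC-6 it was at 4004, 3410 and 3787 TPM with DMSO and 5385, 6615 and 5996 TPM with A9. The groups did not overlap, at a ratio of 1.61 and a log2 fold change of 0.68 (SE 0.11). In MOLM-13 it was at 2208, 2222 and 2438 TPM with DMSO and 2986, 3026 and 3166 TPM with A9. All A9 samples were again higher, by 0.42 (SE 0.06) on the log2 scale, with an adjusted p of 0.0876 by limma.

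The balance of the subunits was read as a ratio in each sample. FTH1 TPM per FTL TPM in MONO-MAC-6 was 0.275, 0.268 and 0.251 with DMSO and 0.591, 0.575 and 0.578 with A9. In MOLM-13 it was 0.221, 0.236 and 0.235 with DMSO and 0.209, 0.218 and 0.188 with A9, lower in every A9 sample. The MOLM-13 difference was -0.026, with an exact two-sided permutation p of 0.1, the smallest that 3 samples against 3 allow. The difference between the lines was not tested, since the MONO-MAC-6 contrast chose these genes. Together the subunits made up 0.472% ± 0.0391 of all TPM with DMSO and 0.948% ± 0.0928 with A9 in MONO-MAC-6, and 0.282% ± 0.0170 and 0.368% ± 0.00760 in MOLM-13 (SD, n = 3).

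**Figure D3:**
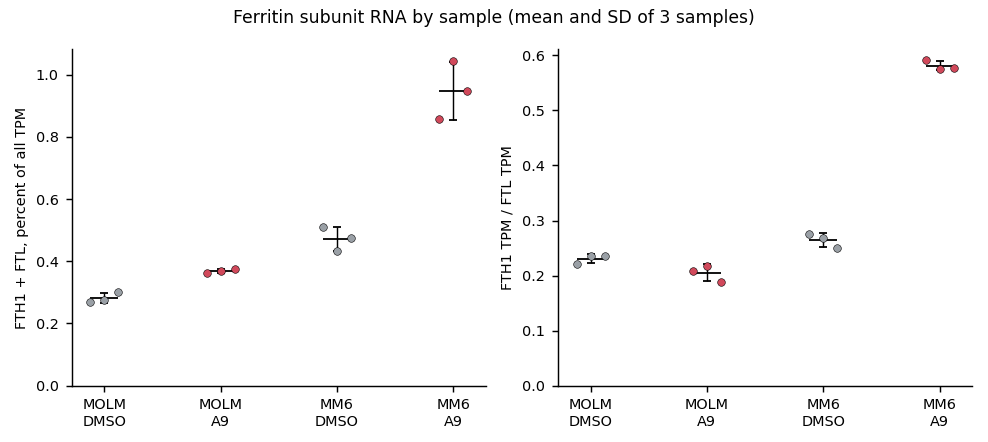
Summed FTH1 and FTL as a percent of all TPM (left) and FTH1 TPM divided by FTL TPM (right), y axes linear from 0, with points for samples and the mean and SD of 3 samples. The summed share is higher with A9 in both lines, while the ratio is 0.581 with A9 against 0.264 with DMSO in MONO-MAC-6 and 0.205 against 0.231 in MOLM-13.

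Both subunits have many processed pseudogenes, and reads can be split between such copies. Of the 31-base words of the leading FTH1 transcript (1229 bases), 50.8% occur in transcripts of 16 other genes, and of the FTL transcript (878 bases) 33.3% occur in 6 others. The 25 annotated FTH1 pseudogenes together had a median of 2.49 TPM with DMSO and 4.25 TPM with A9 in MONO-MAC-6, small beside FTH1. The 16 FTL pseudogenes together had medians of 2.12 and 2.11 TPM. The levels of FTH1 and FTL are uncertain to the extent that reads were divided among these copies.

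IREB2 encodes iron regulatory protein 2, which binds the printed hairpins (chromosome 15, 78437431 to 78501456, plus strand). In MONO-MAC-6 it was at 12.8, 30.3 and 31.5 TPM with DMSO and 31.4, 32.2 and 30.99 TPM with A9. Apart from DMSO sample 1 the values were alike, and the log2 fold change was 0.43 with that sample and 0.03 without it. In MOLM-13 it was at 31.4, 22.1 and 16.8 TPM with DMSO and 20.4, 23.1 and 14.8 TPM with A9 and the groups overlapped (log2 fold change -0.24, limma adjusted p 0.869).

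Across the members, 7 were tested in MOLM-13: 4 had all A9 samples above all DMSO samples, where 8.59% of all 11596 genes tested did, 0 had all below, where 6.42% did, and 3 overlapped. None passed an adjusted p of 0.05 by limma, where 0.121% of all genes tested did (0.0862% higher, 0.0345% lower), and 4 had an unadjusted p under 0.05, where 7.89% of all genes did. HP was among the 4 and was tested only because of its A9 samples. The members' median log2 fold change was 0.24, beside -0.05 over all genes. In MONO-MAC-6, 9 members were tested, 6 had all A9 samples above all DMSO samples, beside 27.2% of all genes (37.9% did not overlap in either direction, 10.7% with A9 below), and no threshold was applied to them. Over all genes 3.36% passed an adjusted p of 0.05 by limma (2.51% higher, 0.855% lower). The median log2 fold change of the 9 was 0.68, beside 0.16 over all genes. Since this contrast chose the set, nothing is read from the MONO-MAC-6 counts.

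**Figure D4:**
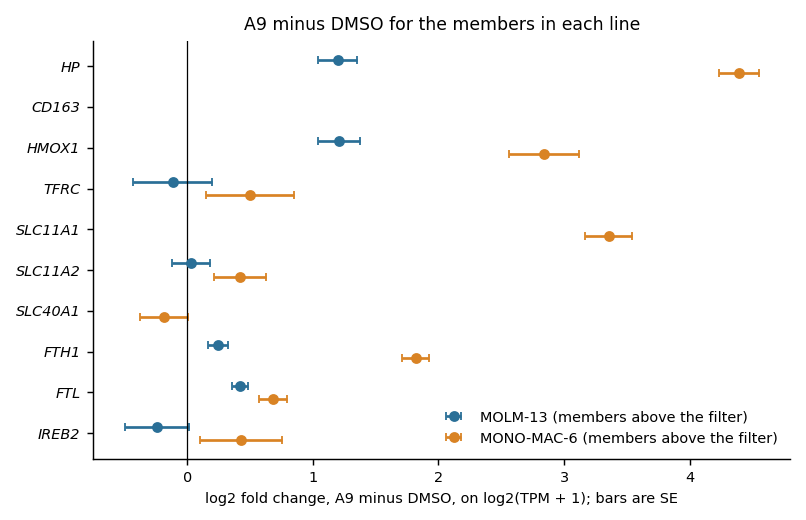
Log2 fold change of A9 minus DMSO on log2(TPM + 1) (x axis) with its SE as bars, for each member above the level filter in a line. HP has the largest value in MONO-MAC-6, 4.39, and 1.20 in MOLM-13, while the bars of TFRC and SLC11A2 in MOLM-13 span 0.

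In order of level per length, FTL led in all 4 groups, followed by FTH1. TFRC came next in both MOLM-13 groups and in MONO-MAC-6 with DMSO. With A9 in MONO-MAC-6, HP at 221 TPM stood next, above TFRC at 135 TPM, with no overlap of their samples. SLC11A1 at 35.7 TPM followed, and its samples overlapped those of IREB2 at 31.5 TPM. SLC40A1 at 9.04 TPM and HMOX1 at 8.58 TPM also overlapped, and CD163 was lowest at 0.715 TPM.

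The genes most like HP were ranked by Pearson correlation of log2(TPM + 1), less each line's mean, over the 12 samples, among 9566 genes. The samples share treatment group, so the values mostly describe the difference between A9 and DMSO, which for HP was larger in MONO-MAC-6. That contrast was used to choose the members, so nothing is read from their ranks. CTSD, a lysosomal protease, led at r = 0.993, followed by THEMIS2 at 0.992, MCEMP1 at 0.989, S100A11 at 0.988 and FTH1 at 0.987. Of the other members, HMOX1 ranked 33 (r = 0.970), SLC11A1 42 (r = 0.965) and FTL 111 (r = 0.935). TFRC and IREB2 ranked 3816 and 4259. CTSD was at 154 TPM with DMSO and 657 TPM with A9 in MONO-MAC-6, and at 40.5 and 52.2 TPM in MOLM-13.

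Other genes of iron and haem handling were counted in 5 lists of 97 genes. In MOLM-13, 72 were tested and none passed an adjusted p of 0.05 by limma, with 7 at an unadjusted p under 0.05, 4 higher and 3 lower, where 7.89% of all genes tested were. In MONO-MAC-6, 75 were tested and 3 rose and none fell by limma, close to the 2.51% and 0.855% of all genes that did. An unadjusted p under 0.05 was found for 20 of the 75, beside 20.5% of all genes. Of the 3, EPAS1 was tested only because of its A9 samples. The median log2 fold change of the tested genes was 0.14 in MONO-MAC-6, beside 0.16 over all genes, and -0.02 in MOLM-13. Without DMSO sample 1 of MONO-MAC-6, 26 of 75 passed, 18 higher and 8 lower, where 24.8% of all genes tested did. None of the 75 passed without DMSO sample 2 or without any of the 3 A9 samples, and 1 did, LRP1, without DMSO sample 3. With no filter on low values, 1 passed, BLVRB.

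In the list of haem uptake, breakdown and export, 2 of 13 tested genes rose in MONO-MAC-6. BLVRB encodes biliverdin reductase B. It was at 23.1, 15.2 and 16.3 TPM with DMSO and 40.6, 50.3 and 47.6 TPM with A9. The log2 fold change was 1.31 (SE 0.18, limma adjusted p 0.0174). In MOLM-13 it was at 35.0, 35.7 and 40.9 TPM with DMSO and 50.3, 51.5 and 51.2 TPM with A9, and its adjusted p was 0.146 by limma. LRP1, a scavenger receptor that takes up haem bound to haemopexin, was at 5.15, 6.41 and 7.40 TPM and then 12.2, 14.5 and 13.1 TPM in MONO-MAC-6. Its log2 fold change was 0.97 (SE 0.16), with an adjusted p of 0.0278 by limma, and in MOLM-13 it was below the filter at 0.145 and 0.188 TPM. With single samples left out, the limma adjusted p ranged from 4.39e-05 (without DMSO sample 1) to 0.115 for BLVRB and from 0.000711 (without DMSO sample 1) to 0.174 for LRP1. With the length trend removed, LRP1 stood at 0.57 with a limma adjusted p of 0.102, and with another scaling BLVRB stood at 1.13 with 0.0685 by limma. HEBP2, a haem-binding protein, was higher in all A9 samples of MOLM-13 (61.8 ± 1.62 and 73.5 ± 5.50 TPM) and lower in all A9 samples of MONO-MAC-6 (37.5 ± 0.666 and 33.4 ± 1.93 TPM; SD, n = 3). It passed the threshold in neither line, with adjusted p of 0.399 and 0.330 by limma. PGRMC2, a haem chaperone, overlapped in both lines. Of 76 wider genes tested for a difference of the A9 effect between lines, BLVRB and LRP1 passed, beside 2.99% of all genes.

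Among the 12 iron regulators tested in MONO-MAC-6, only EPAS1 passed the threshold by limma. EPAS1, which encodes the hypoxia-inducible factor HIF-2α, stood at 0.568 ± 0.298 TPM with DMSO and 2.44 ± 0.649 TPM with A9 (SD, n = 3), so it was tested only because of the A9 samples. Its log2 fold change was 1.13 with an adjusted p of 0.0396 by limma, which ranged from 0.00492 (without DMSO sample 1) to 0.185 with single samples left out. In MOLM-13 EPAS1 was at 10.0 and 11.3 TPM, with an adjusted p of 0.875 by limma. ZFP36, an mRNA-decay factor that targets TFRC mRNA, was at 79.3 ± 26.0 TPM and 144 ± 6.39 TPM in MONO-MAC-6, with an adjusted p of 0.123 by limma. Without DMSO sample 1 its log2 fold change was 0.61 and its adjusted p by limma 0.000344. NFE2L2, the factor NRF2, had an adjusted p of 0.283 by limma with that sample and 0.0328 without it.

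None of the genes of haem synthesis (15 tested), iron uptake and transport (12 tested) or iron-sulphur cluster assembly (23 tested) passed in MONO-MAC-6. ALAS1, the first enzyme of haem synthesis, was at 86.1 ± 14.8 and 117 ± 4.53 TPM (log2 fold change 0.45, limma adjusted p 0.145). ABCB10, a mitochondrial transporter of haem synthesis, was at 20.2 ± 3.27 and 15.1 ± 0.741 TPM (log2 fold change -0.38, limma adjusted p 0.216). Without DMSO sample 1, ALAS1 stood at 0.31 with an adjusted p of 0.00772 by limma, and ABCB10 at -0.52 with 0.00144 by limma. PCBP1 and PCBP2, which deliver iron to ferritin, overlapped between the groups of both lines, as did HSPA9 and BOLA3 of cluster assembly.

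**Figure D5:**
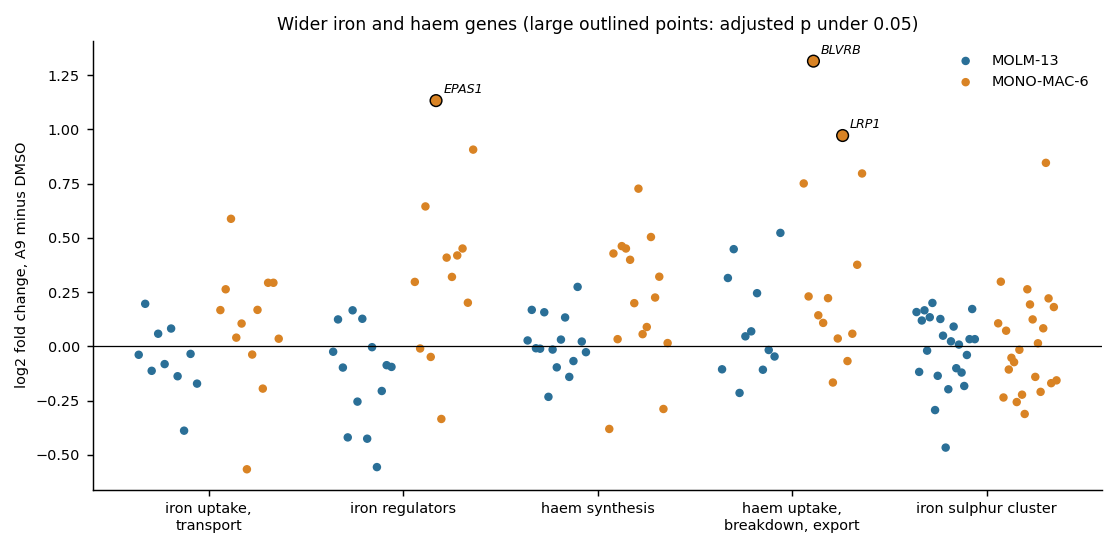
Log2 fold change of A9 minus DMSO (y axis) for each tested gene of the 5 wider lists (x axis), MOLM-13 on the left and MONO-MAC-6 on the right of each list, with large outlined points at an adjusted p under 0.05. BLVRB, LRP1 and EPAS1 are the outlined points, all in MONO-MAC-6 and above 0.

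Markers of other cell types were read beside these results. The 11 monocyte and macrophage markers summed to 260 to 283 TPM with DMSO and 470 to 505 TPM with A9 in MOLM-13, and to 3206 to 3767 TPM and 7843 to 8161 TPM in MONO-MAC-6. LYZ supplied most of the MONO-MAC-6 sum, and CD68 there was at 52.5 ± 10.7 and 173 ± 11.7 TPM (SD, n = 3). In MOLM-13, LYZ was at means of 133.5 TPM with DMSO and 326.7 TPM with A9, and CD68 at 38.4 and 45.3 TPM. Of the 11, 8 had all A9 samples above all DMSO samples in MONO-MAC-6 and 5 in MOLM-13, with none below, while the others overlapped. Of all genes tested, 27.2% were above and 10.7% below in MONO-MAC-6, and 8.59% and 6.42% in MOLM-13. Those shares cover genes above the filter, while the markers include lower ones, such as VSIG4 and FCN1. ITGAM was among those that overlapped, at means of 2.99 and 3.01 TPM in MONO-MAC-6 and 6.73 and 4.86 TPM in MOLM-13. The summed level was higher with A9 in the samples where HP and the ferritins were, and its part in those results was not tested. The 14 liver markers summed to at most 3.92 TPM, with FGA, FGG, AHSG and CRP at 0 in all samples. In MONO-MAC-6 they summed to 2.03 to 3.20 TPM with DMSO and 3.47 to 3.92 TPM with A9. Of the 14, 4 were higher and 0 lower in all A9 samples there, beside 27.2% and 10.7% of all genes tested. Only TF reached a mean of 1 TPM. In MOLM-13 all 14 overlapped. The globins HBB and HBD were listed at 0 in all samples, while HBA1 was at 6.72 ± 1.71 TPM with DMSO and 3.22 ± 1.05 TPM with A9 in MONO-MAC-6 and at 0 in MOLM-13 (SD, n = 3). The 14 erythroid markers, mostly EPOR, summed to 26.8 to 29.1 TPM with DMSO and 23.5 to 24.7 TPM with A9 in MONO-MAC-6. Of these, 1 was higher and 2 lower in all A9 samples there, beside the same 27.2% and 10.7%. In MOLM-13 they summed to 12.1 to 13.2 TPM with DMSO and 11.3 to 14.3 TPM with A9, and all overlapped. The granule genes that accompany haptoglobin in developing granulocytes, LTF, CAMP and LCN2, were at means of at most 0.632 TPM. With DMSO and A9 in MONO-MAC-6, CAMP was at means of 0.0318 and 0.632 TPM and LCN2 at 0.0208 and 0.323 TPM. LTF was listed at 0 there. The other granule genes did not share a direction, and MMP8, MMP9, CEACAM8 and BPI had means under 1 TPM in MONO-MAC-6. In MONO-MAC-6, ELANE was at means of 2343 and 2835 TPM with DMSO and A9, and PRTN3 at 1226 and 1628 TPM. CTSG was at 591 and 229 TPM, AZU1 at 292.5 and 247 TPM, and MPO at 51.9 and 37.7 TPM. The 12 neutrophil granule markers summed to 4116 to 5251 TPM with DMSO and 4809 to 5142 TPM with A9 there. Of these, 4 were higher and 3 lower in all A9 samples, beside 27.2% and 10.7% of all genes tested. In MOLM-13 the 12 summed to 4380 to 5056 TPM with DMSO and 4718 to 5158 TPM with A9. There 3 were higher and 2 lower in all A9 samples, beside 8.59% and 6.42% of all genes tested. ELANE was at 931.5 and 1575 TPM in MOLM-13, PRTN3 at 24.6 ± 28.7 and 344 ± 37.9 TPM (SD, n = 3), and CTSG at 3461 and 2612 TPM. CD3E and MS4A1 of T and B cells were listed at 0.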

How the data were processed

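The deposited values are transcript TPM for 207175 transcripts per line, made by the authors with kallisto on GRCh38 per the submitters' processing notes, which also name limma. Versions and the annotation index are not given in the sources used here. Read depth is unknown from TPM; 86918 to 105082 transcripts per library were above 0, and the 36 libraries held no identical pair. Transcripts were matched to GENCODE 29 (162526, or 78.4%, holding 89.8% to 91.4% of TPM), summed by gene, and averaged over libraries sharing a first number. Each line was fitted alone in limma 3.58.1 (R 4.3.3) on log2(TPM + 1) for genes with a group mean of at least 1 TPM, with Benjamini-Hochberg adjustment over all genes. A fold on this scale understates the change of low genes. Differences between lines used a single fit of all samples. The code was tested on simulated data. The members and lists were chosen with earlier results of these data known. All members were named, and of the wider lists those past the threshold (at most 12 per line) and the 2 of highest level per list. Alternatives were a pseudocount of 0.1, no filter, another scaling, other library groupings, a replicate block, leaving out each sample, and, chosen after seeing the data, removal of each sample's trend on gene length.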

Additional observations from a re-analysis of the deposited data

Results flagged for a closer look

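Of 76 wider iron and haem genes tested for a difference of the A9 effect between the lines, 2 passed an adjusted p of 0.05 by limma, where 2.99% of all 13408 genes did. BLVRB differed by 0.87 on the log2 scale (SE 0.20, adjusted p 0.0488 by limma), MONO-MAC-6 minus MOLM-13, with all A9 samples higher in both lines. LRP1 differed by 0.92 (SE 0.18, adjusted p 0.0212 by limma), but in MOLM-13 it stayed below 1 TPM. HEBP2, which was higher in all A9 samples of one line and lower in all of the other, had a difference of -0.41 and an adjusted p of 0.0580 by limma. The lines also differed in dose.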

How the results depend on the processing

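The numbers in the titles did not pair the samples in MONO-MAC-6, and in MOLM-13 a pairing was unclear. Deviations of same-numbered A9 and DMSO samples correlated at 0.36, -0.08 and 0.68 in MOLM-13 and at -0.03, 0.09 and -0.09 in MONO-MAC-6. A9 sample 2 and DMSO sample 1 of MOLM-13, which differ in number, correlated at 0.63. With the replicate block, calls by limma went from 14 to 87 in MOLM-13, from 433 to 94 in MONO-MAC-6, from 401 to 207 for the difference between lines, from 3 to 0 for the wider genes in MONO-MAC-6 and from 0 to 3 for the members in MOLM-13 (HP, HMOX1 and FTL). Without a filter the counts were 4 in MOLM-13, 254 in MONO-MAC-6 and 1 for the wider genes there. Another scaling gave 45 in MOLM-13 and 1 member there (HMOX1, adjusted p 0.0201 by limma), and in MONO-MAC-6 331 higher and 235 lower against 323 and 110, with the median gene at -0.01 in place of 0.16. Grouping libraries by the second number gave 5440, 8703 and 8505 calls for MOLM-13, MONO-MAC-6 and the difference, 39 and 52 wider genes and 6 members in MOLM-13. Using the first library alone gave 277 and 217 for MONO-MAC-6 and the difference. Removing the length trend gave 168, 1167 (629 higher, 538 lower) and 732, wider genes 2 and 5, and 3 members in MOLM-13. Leaving out each sample gave 2 to 8 calls in MOLM-13, 59 to 3204 in MONO-MAC-6, 197 to 548 for the difference, 0 to 26 wider genes in MONO-MAC-6 and 0 to 1 members in MOLM-13; 3204 and 26 were without DMSO sample 1. BLVRB, LRP1 and EPAS1 reached adjusted p of 0.115, 0.174 and 0.185 by limma. The cause was not tested. Leaving out each sample turned the direction, over the ranges given, for TFRC (-0.426 to 0.133, with 0.089 without A9 sample 3), SLC11A2 (-0.08 to 0.122, with -0.062 without A9 sample 2), ABCB10 (-0.058 to 0.102, with -0.008 and -0.004 without A9 sample 1 and 2) and PGRMC2 (-0.108 to 0.009) in MOLM-13. In MONO-MAC-6 it did so for PCBP1 (-0.059 to 0.102), PCBP2 (-0.049 to 0.194), PGRMC2 (-0.057 to 0.139) and HSPA9 (-0.146 to 0.523), the lowest of each without DMSO sample 1. There scaling turned PCBP1 (-0.152), PCBP2 (-0.087), PGRMC2 (-0.131) and BOLA3 (-0.086), and removing the length trend turned PCBP1 (-0.068) and PGRMC2 (-0.056). All 9 members tested in MONO-MAC-6 kept their direction under all alternatives run there, with TFRC down to 0.065 and IREB2 down to 0.027. Since the MONO-MAC-6 contrast chose the set, nothing is read from these directions.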
